A study of Mus musculus with 13 samples.

Results

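Transcripts of the insulin-like growth factor (IGF) axis were followed in primary and spontaneously immortalized mouse embryonic fibroblasts (MEFs): the ligand gene Igf1, the receptor gene Igf1r and the binding protein genes Igfbp2, Igfbp3, Igfbp4, Igfbp5, Igfbp6 and Igfbp7. The 8 genes were chosen by name, as members of one signaling system, and their symbols were matched to the gene identifiers of the count tables. They are 8 of the 55487 genes listed, and all 8 carried enough reads to be tested in both genotypes. The 13 poly-A RNA-seq libraries comprised wild-type (WT) MEFs, with 3 primary and 3 immortalized libraries, and MEFs labeled Prkd3-/- (Prkd3 encodes protein kinase D3), with 3 primary and 4 immortalized libraries. All cells were kept in medium with 10% fetal calf serum (FCS), and cultures that had become senescent by serial passaging were moved to 20% FCS until colonies of immortalized cells grew out. The immortalized lines were then expanded, and the study's methods give 10% FCS again for this step in the WT cells. The WT primary cells came from 3 embryos, clones 3, 4 and 5, and each WT line shares its number with the primary culture it was made from. The Prkd3-/- libraries were numbered 13, 14 and 15, with a further immortalized library, 13a, whose relation to clone 13 the labels do not spell out. Each line is an outgrowth of colonies, so an immortalized library measures 1 selected line and not the range of lines that a culture could have given.

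IGF1 and IGF2 are secreted ligands that bind the receptor tyrosine kinase IGF1R and, through docking proteins and the PI3K and MAP kinase cascades, promote growth and survival. Fibroblasts make both the ligand and the receptor, and IGF signaling is among the serum-dependent inputs on which cultured embryonic fibroblasts rely. The classical IGF binding proteins are secreted carriers that hold IGFs in the medium or at the matrix, prolong their life or keep them from the receptor, and release them when proteases cut the carrier. IGFBP7 belongs to the same family by sequence but binds IGFs weakly. Several of these proteins, among them IGFBP3, IGFBP5 and IGFBP7, are known as secreted factors of senescent cells.

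The libraries held from 35273408 to 100441756 counted reads, so that a floor of 3 counts was worth between 0.0299 and 0.0851 CPM, the count scaled to library size. Fibroblast markers summed to between 30750 and 93960 CPM in every library, and none of the 10 was at 0 throughout a group. Single markers varied among the lines: Lum had 164.7 to 192.4 CPM in WT primary libraries and 0.048 to 93.5 CPM in WT lines, and Dcn had 123.6 to 132.4 and 0.66 to 456.5 CPM. Of the 10 markers, 8 reached 1 CPM in WT line 3 and in Prkd3-/- line 15, 9 in Prkd3-/- line 13, and all in the other libraries. IGF members below every primary library of the genotype numbered 4 in WT line 3 and 5 in each of Prkd3-/- lines 13 and 15. They also numbered 5 in each of WT lines 4 and 5, against 1 in line 13a and 3 in line 14. The share of all genes in this order was not worked out for single lines, so these counts do not set the members apart from other genes. A link with the markers was not tested. Prkd3 itself was read at 69.2 to 93.8 CPM in the WT libraries and at 33.6 to 61.0 CPM in those labeled Prkd3-/-, and since the allele is not given in the sources used here and a gene-level count cannot show the loss of part of a gene, this neither checks nor contradicts the label. Replicates differed beyond counting noise in every pair, yet unevenly. The mean chi-square per gene, near 1 for repeated counts of the same RNA, was 5.25 to 12.4 between WT primary libraries and 409.0 to 644.4 between WT lines. The median over genes was far lower, at 1.34 to 1.66 and 14.8 to 22.4, so part of the genes raised the means. Prkd3-/- primary clone 14 stood apart from clones 13 and 15, and immortalized clone 13a differed at least 2-fold from clone 13 at 29.2% of genes, within the 16.6% to 39.8% of the other pairs of Prkd3-/- lines. With so few libraries per group, p-values weigh a difference of means against the spread among these clones only. The WT and Prkd3-/- counts come from separate tables, so genotype and table cannot be told apart in any level compared between them.

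The binding protein genes include 1 adjacent pair. In GRCm38 coordinates, Igfbp2 (chr1:72824503-72852474, plus strand) and Igfbp5 (chr1:72857932-72874884, minus strand) point toward each other with 5457 bases between their ends, and Igfbp3 (chr11:7206086-7213923, minus strand) lies 3539 bases from Igfbp1. The promoters of these 3 genes are shown because Igfbp3 and Igfbp5 were the genes lower in every WT line, while Igfbp2, the neighbor of Igfbp5, took a different course. Each stretch runs from 250 bases before to 50 bases after the RefSeq start (GRCm38.p6), and capitals mark matches on either strand to the TATA-like words TATAAA and TATTTA and the palindrome TATATA, to the GC box core GGGCGG, or to the E-box CACGTG. Igfbp5 is chr1:72874816-72875115 (minus strand), Igfbp3 is chr11:7213874-7214173 (minus strand) and Igfbp2 is the first of 2 listed promoters, chr1:72824230-72824529 (plus strand).
Igfbp5: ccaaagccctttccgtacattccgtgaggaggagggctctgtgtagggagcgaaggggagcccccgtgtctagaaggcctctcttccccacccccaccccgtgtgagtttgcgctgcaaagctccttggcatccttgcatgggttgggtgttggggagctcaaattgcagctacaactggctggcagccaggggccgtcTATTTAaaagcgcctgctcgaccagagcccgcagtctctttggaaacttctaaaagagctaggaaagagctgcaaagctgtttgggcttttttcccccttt
Igfbp3: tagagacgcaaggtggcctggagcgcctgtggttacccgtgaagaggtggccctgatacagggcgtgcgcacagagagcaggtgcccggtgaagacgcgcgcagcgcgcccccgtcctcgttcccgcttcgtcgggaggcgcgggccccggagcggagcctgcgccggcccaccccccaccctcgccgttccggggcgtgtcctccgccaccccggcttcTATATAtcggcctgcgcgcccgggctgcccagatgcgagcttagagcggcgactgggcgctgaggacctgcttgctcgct
Igfbp2: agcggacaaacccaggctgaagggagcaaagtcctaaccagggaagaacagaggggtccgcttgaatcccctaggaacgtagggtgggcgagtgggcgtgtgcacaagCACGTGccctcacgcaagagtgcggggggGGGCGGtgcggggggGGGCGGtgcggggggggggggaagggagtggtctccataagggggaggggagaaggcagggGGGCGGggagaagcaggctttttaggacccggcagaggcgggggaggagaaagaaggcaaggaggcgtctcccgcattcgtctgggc
The promoter of Igfbp5 held TATTTA 51 bases before the start, which 13.7% of the 32851 listed mouse promoters also hold on either strand. Igfbp3 held TATATA 30 bases before the start, a match found in 5.67% of promoters. Igfbp2 had neither and instead held GGGCGG, present in 35.7% of promoters, at 3 places, and CACGTG, present in 7.15%. CpG pairs numbered 10 for Igfbp5, 18 for Igfbp2 and 37 for Igfbp3, against a median of 7 over all promoters. The 2 genes that were low in every WT line thus each held 1 match to TATTTA or TATATA and none to GGGCGG or CACGTG. This was not particular to them. Igfbp4 and Igfbp6, which were not low in every WT line, each held TATAAA, 28 and 148 bases before the start. They also had no match to GGGCGG or CACGTG. Igfbp3 and Igfbp5 differed from each other in CpG number. A match describes the letters in the window and not a bound site.

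The first question was which of these genes differed between primary and immortalized cells within a genotype. None of the 8 passed the thresholds of an adjusted p below 0.01 and an absolute Log2FC of at least 1 by edgeR's quasi-likelihood test in either genotype. In WT cells 1.82% of all tested genes passed, and in Prkd3-/- cells 0% did. The gene nearest to the thresholds was Igfbp5 in WT cells, whose mRNA was between 34.7-fold and 408.3-fold below the primary mean in the 3 lines. Igfbp3 was the only member below every primary library in every line of both genotypes. At an unadjusted p below 0.05, 1 of the 8 genes differed in WT cells and 0 in Prkd3-/- cells, against 19.7% and 6.56% of all tested genes. The lines differed widely from each other for most of the 8 genes, as the plot of every library shows.

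**Figure D1:**
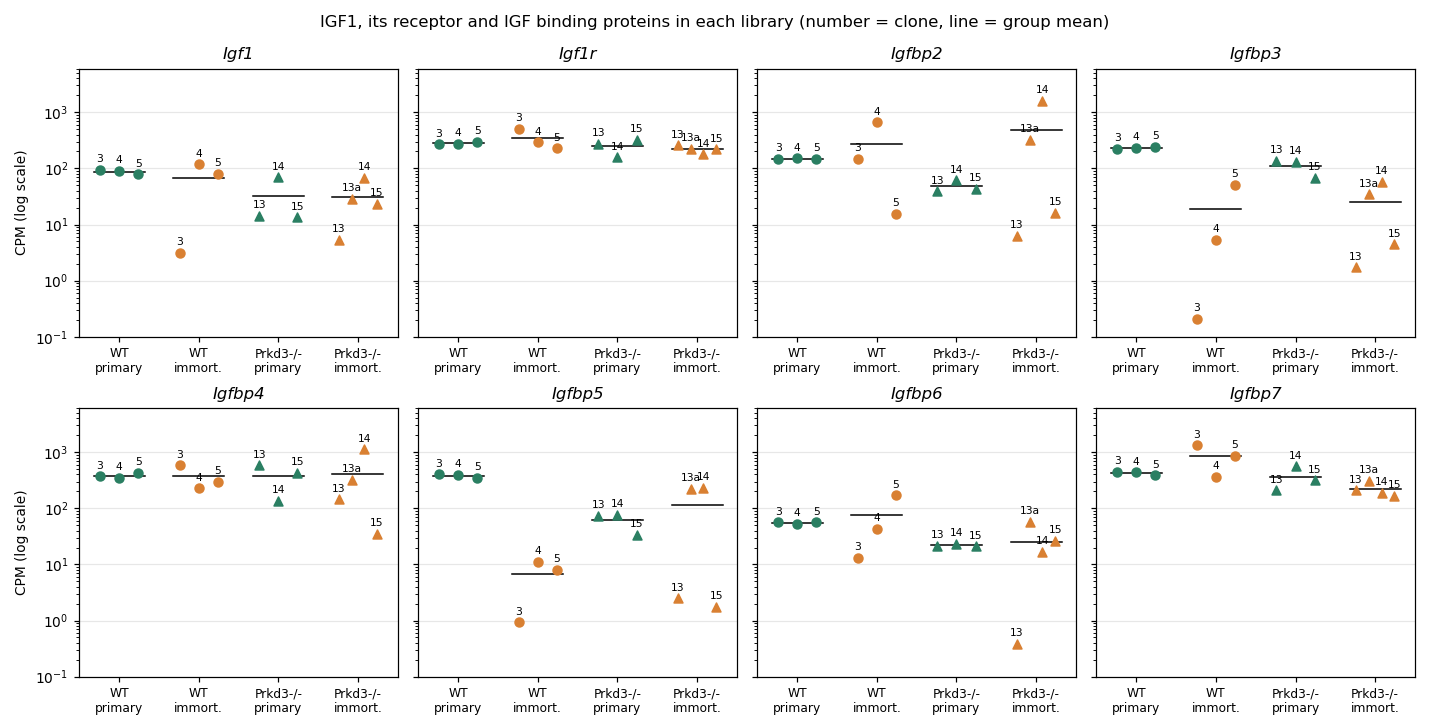
CPM (log scale) of the 8 genes in each of the 13 libraries, by genotype and state; circles are WT and triangles Prkd3-/-, green primary and orange immortalized, numbers are clones and horizontal lines are group means. The 3 WT primary libraries lie together for every gene, whereas the immortalized lines spread widely, as for Igfbp3 with 0.21 to 50.6 CPM in WT lines.

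Igf1 (chr10:87858265-87937042), the secreted ligand, was read at 94.9, 90.6 and 77.9 CPM in WT primary clones 3, 4 and 5. The WT lines gave 3.13 CPM for clone 3, 117.6 CPM for clone 4 and 80.1 CPM for clone 5. A single line, clone 3, was thus 28.1-fold below the primary mean, while clones 4 and 5 lay on either side of it. In Prkd3-/- cells the primary clones 13, 14 and 15 had 14.3, 69.8 and 13.4 CPM. Their lines 13, 13a, 14 and 15 had 5.31, 28.9, 68.1 and 23.4 CPM. Again clone 13 was the lowest line, and clone 14 was highest in both states. The group means were 87.8 ± 8.86 (SD, n = 3) and 66.9 ± 58.3 CPM (n = 3) in WT primary and immortalized cells, and 32.5 ± 32.3 (n = 3) and 31.4 ± 26.4 CPM (n = 4) in Prkd3-/- cells. By edgeR the Log2FC was -0.39 (SE 1.05, adjusted p = 0.875) in WT and -0.05 (SE 0.89, adjusted p = 0.996) in Prkd3-/- cells. The WT value turned to 0.17 without line 3, and the Prkd3-/- value to 1.19 without primary clone 14.

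Igf1 is also made by macrophages, and their marker transcripts moved with state. The 10 macrophage markers summed to between 1369 and 1408 CPM in the WT primary libraries and to 97.9, 56.8 and 135.1 CPM in WT lines 3, 4 and 5. WT line 4 therefore had the most Igf1 of any library and the least macrophage transcript of the WT libraries. In Prkd3-/- primary clones 13, 14 and 15 the sums were 153.6, 2043 and 374.1 CPM, the highest in the clone that was also highest in Igf1. The Prkd3-/- lines 13, 13a, 14 and 15 had 17.8, 334.5, 12.9 and 20.0 CPM, and here Igf1 was highest in line 14, where the sum was lowest. No macrophage marker was at 0 throughout a group. In bulk RNA, fewer cells of a type and less RNA per cell cannot be told apart, and the part of macrophage transcripts in the Igf1 levels was not tested. Endothelial markers summed to at most 29.5 CPM and epithelial markers to at most 4.30 CPM. Skeletal muscle markers summed to 22.9 to 26.2 CPM in WT and 4.93 to 27.6 CPM in Prkd3-/- primary cells. Most of this was Des, at 22.4 to 25.8 and 4.35 to 27.1 CPM. Myod1, Myf5, Myog and Pax7 had at most 0.0762 CPM in WT and 0.2035 CPM in Prkd3-/- primary cells. In any line the muscle markers summed to at most 7.27 CPM, with Myod1, Myf5, Myog and Pax7 at 0. Smooth muscle and pericyte markers, which fibroblasts share in part, summed to 3217 to 10980 CPM. Chondrocyte markers summed to 189.3 to 245.7 CPM in WT primary libraries and to 259.1, 725.4 and 76.5 CPM in WT lines 3, 4 and 5. In Prkd3-/- cells these sums were 114.4 to 158.6 CPM in primary libraries, and 117.2, 897.5, 2148 and 418.0 CPM in lines 13, 13a, 14 and 15.

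Igf1r (chr7:67952827-68233668), the receptor tyrosine kinase for both ligands, was the steadiest of the 8 genes among the lines. WT primary clones 3, 4 and 5 had 267.3, 270.7 and 294.7 CPM, and the corresponding lines had 504.6, 291.1 and 227.4 CPM. Only line 3, the WT line with the least Igf1, stood well above the primary range, at 1.82-fold the primary mean. In Prkd3-/- cells the primary clones 13, 14 and 15 had 273.2, 156.4 and 319.3 CPM, and lines 13, 13a, 14 and 15 had 257.0, 225.9, 178.8 and 217.9 CPM. These groups overlapped, all 4 lines lying inside the primary range. In edgeR the Log2FC was 0.30 (SE 0.30, adjusted p = 0.645) in WT and -0.20 (SE 0.27, adjusted p = 0.900) in Prkd3-/- cells. Igf1r lies on chromosome 7, whose genes had a median log2 ratio to the primary mean of 0.01 in WT line 3, where Igf1r was at 0.86, and of -0.63 in Prkd3-/- line 14, where Igf1r was at -0.42. In Prkd3-/- line 14 the gene and its chromosome were both below the primary mean, with Igf1r still inside the primary range of CPM. In WT line 3 the chromosome median stayed near the primary mean. Each is the line farthest from the primary mean for Igf1r in its genotype, and a link with the chromosome was not tested.

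Igfbp5 encodes the binding protein that attaches to extracellular matrix. WT primary clones 3, 4 and 5 had 403.5, 396.5 and 345.0 CPM, and the WT lines had 0.93, 10.99 and 8.11 CPM. Every WT line was far below every primary library, and the group means were 381.6 ± 31.96 and 6.68 ± 5.18 CPM (SD, n = 3 each). The edgeR Log2FC was -5.84 (SE 0.94, adjusted p = 0.0252), which missed the threshold of 0.01. DESeq2 gave an adjusted p of 4.16e-14 and limma one of 0.00767, both past it, and these tools passed 5.94% and 0.998% of all genes. At an adjusted p below 0.05 edgeR passed 4.38% of genes, with Igfbp5 among them. The numbers pair WT primary and immortalized cells, and with clone as a replicate block the Log2FC was -6.29 and the adjusted p 0.109 by edgeR. Leaving out line 3 gave an edgeR adjusted p of 0.000851 and a Log2FC of -5.32, so that the call turned on 1 line although the direction did not. Over all left-out libraries the adjusted p ran from 0.000851 to 0.106, the largest values coming without a primary clone. Macrophage marker sums were also lower in every WT line than in every WT primary library, and their part in the Igfbp5 and Igfbp3 differences was not tested.

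The same gene split the Prkd3-/- lines. Primary clones 13, 14 and 15 had 73.0, 77.0 and 33.6 CPM. Lines 13 and 15 had 2.50 and 1.75 CPM, below every primary library, while lines 13a and 14 had 222.2 and 232.9 CPM, above every primary library. No line lay between these levels. The edgeR Log2FC was 0.91 (SE 1.54, adjusted p = 0.922), an average over lines on both sides. The state effect was 6.75 log2 units higher in Prkd3-/- than in WT cells (SE 2.15, unadjusted p = 0.00927 in edgeR), and its adjusted p was 1.0, or 0.0768 by DESeq2. Over all 21197 genes 0% passed this interaction test by edgeR at an adjusted p below 0.05. By edgeR 841 genes (3.97%) had an unadjusted p below 0.05, and 37 genes were past the threshold by DESeq2.

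Igfbp3 encodes the main carrier of IGFs in blood, which in cultured cells also acts on growth without the ligands. WT primary clones 3, 4 and 5 had 221.4, 231.4 and 239.1 CPM, and the lines had 0.21, 5.28 and 50.6 CPM. All lines were below all primary libraries, but the lines differed among themselves 241.6-fold on the CPM scale. Prkd3-/- primary clones 13, 14 and 15 had 137.3, 131.9 and 68.5 CPM, and lines 13, 13a, 14 and 15 had 1.72, 34.6, 58.3 and 4.45 CPM. Here too the groups did not overlap, although line 14 lay just below primary clone 15. The edgeR Log2FC was -3.62 (SE 1.60, adjusted p = 0.289) in WT and -2.18 (SE 1.06, adjusted p = 0.790) in Prkd3-/- cells, and their difference had an unadjusted p of 0.467. DESeq2 gave Igfbp3 no adjusted p in WT cells, and limma gave a Log2FC of -5.85 with an adjusted p of 0.0754. Without line 5 the WT Log2FC was -6.39 (adjusted p = 0.053 by edgeR), and without line 14 the Prkd3-/- value was -3.05.

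The order of the groups was also read against all genes. In WT cells 2 of the 8 members, Igfbp3 and Igfbp5, had every line below every primary library, as had 17.3% of all tested genes. None had every line above every primary library, an order found for 14% of genes. In Prkd3-/- cells Igfbp3 alone had every line below, against 5.26% of genes, and none of the 8 had every line above, against 4.19%. At 2 of 8 and 1 of 8 genes, these counts do not set the members apart from other genes.

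**Figure D2:**
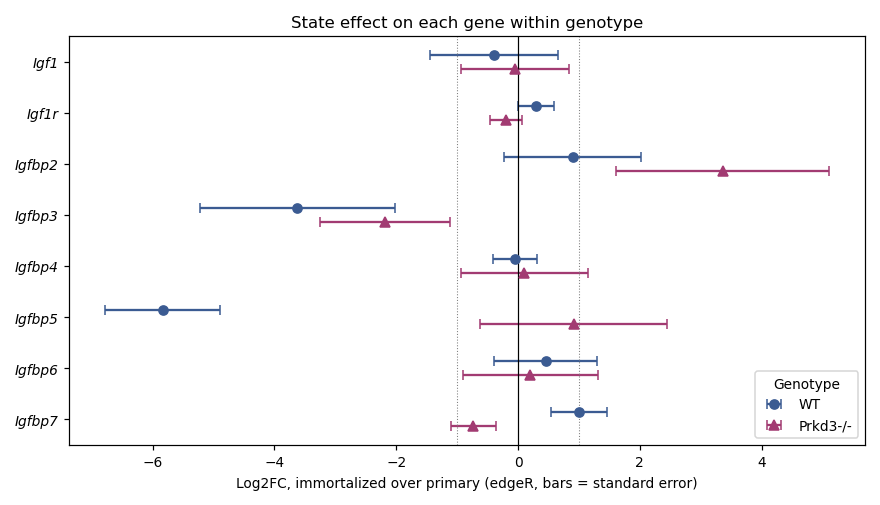
Log2FC of immortalized over primary cells for each gene (edgeR), with bars of 1 standard error derived from the F statistic. Circles are WT, triangles Prkd3-/-, and dotted lines mark an absolute Log2FC of 1. Igfbp5 in WT cells, at -5.84, is the value farthest from 0, and Igfbp3 is negative in both genotypes.

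Igfbp2, a carrier that is abundant in embryonic tissues, took opposite directions from line to line. WT primary clones 3, 4 and 5 had 146.9, 150.1 and 146.9 CPM, a 1.02-fold range. The WT lines had 149.7, 662.4 and 15.6 CPM, so that line 3 matched the primary level, line 4 was 4.48-fold above the primary mean and line 5 was 9.51-fold below it. Prkd3-/- primary clones 13, 14 and 15 had 39.3, 61.0 and 42.8 CPM, and lines 13, 13a, 14 and 15 had 6.28, 323.2, 1607 and 16.3 CPM. Lines 13a and 14 were above and lines 13 and 15 below every primary library, the same division of lines as for Igfbp5. With edgeR the Log2FC was 0.90 (SE 1.13, adjusted p = 0.713) in WT and 3.36 (SE 1.75, adjusted p = 0.808) in Prkd3-/- cells. The latter rested on line 14 and was 1.27 without it. In WT cells the neighbors parted, since Igfbp5 was low in line 4, where Igfbp2 was highest. Chondrocyte marker sums had the same order as Igfbp2 among the lines of each genotype. Prkd3-/- line 15, though, was above its primary libraries in that sum and below them in Igfbp2. Most of the largest sum in each genotype was Col2a1, at 675.8 CPM in WT and 2015 CPM in Prkd3-/- lines. In WT lines Acan and Col9a1 had at most 0.4029 and 0.0153 CPM, against at least 4.595 and 0.1967 CPM in WT primary libraries. In Prkd3-/- lines they reached 25.07 and 1.767 CPM, against at most 2.357 and 0.1614 CPM in primary libraries. Single markers were not ordered by line, and a link with Igfbp2 was not tested.

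Igfbp4, a carrier that restrains IGF action until the protease PAPP-A cuts it, stayed near its primary level on average but not line by line. WT primary clones 3, 4 and 5 had 373.6, 348.8 and 426.4 CPM and the WT lines 585.7, 225.5 and 299.5 CPM. Prkd3-/- primary clones 13, 14 and 15 had 584.9, 135.0 and 423.1 CPM, and lines 13, 13a, 14 and 15 had 143.8, 320.3, 1131 and 35.2 CPM. Line 3 was above and lines 4 and 5 below the WT primary range, while line 14 was the only Prkd3-/- line above its primary range and line 15 the only one below it. Its edgeR Log2FC was -0.05 (SE 0.36, adjusted p = 0.957) in WT and 0.10 (SE 1.04, adjusted p = 0.993) in Prkd3-/- cells. Without line 14 the Prkd3-/- value was -1.20.

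Igfbp6, a carrier with a preference for IGF2, was the member with the lowest CPM in WT primary cells, at 56.1, 52.6 and 56.5 CPM in clones 3, 4 and 5. The WT lines had 13.1, 43.4 and 169.3 CPM. Lines 3 and 4 were below and line 5 above every primary library. Prkd3-/- primary clones 13, 14 and 15 had 21.7, 23.1 and 21.2 CPM, and lines 13, 13a, 14 and 15 had 0.38, 57.7, 16.7 and 26.4 CPM, with lines 13a and 15 above and lines 13 and 14 below the primary range. Its edgeR Log2FC was 0.45 (SE 0.85, adjusted p = 0.818) in WT and 0.20 (SE 1.11, adjusted p = 0.983) in Prkd3-/- cells. The WT value was -0.96 without line 5, and the Prkd3-/- value was -0.61 without line 13a.

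Igfbp7, the low-affinity member of the family, had 449.2, 439.0 and 386.6 CPM in WT primary clones 3, 4 and 5. The WT lines had 1333, 362.2 and 857.6 CPM, with lines 3 and 5 above and line 4 below every primary library. In Prkd3-/- cells the primary clones 13, 14 and 15 had 208.5, 557.0 and 314.4 CPM and lines 13, 13a, 14 and 15 had 209.4, 307.6, 187.5 and 167.8 CPM, lines 14 and 15 lying below the primary range and lines 13 and 13a inside it. The edgeR Log2FC was 1.00 (SE 0.46, adjusted p = 0.304) in WT and -0.74 (SE 0.37, adjusted p = 0.793) in Prkd3-/- cells. Their difference was -1.73 (SE 0.61, unadjusted p = 0.0161, adjusted p = 1.0 in edgeR), the only member besides Igfbp5 with an unadjusted p below 0.05. Over all genes of this edgeR fit, 3.97% had an unadjusted p below 0.05. For the other 6 members the edgeR interaction gave unadjusted p-values from 0.274 to 0.911. The WT value was 0.52 without line 3 and 1.37 without line 4 (adjusted p = 0.0366 by edgeR), and the Prkd3-/- value was -0.27 without primary clone 14 and -1.02 without primary clone 13. Of the Igfbp7 exon bases, 7.03% are shared with Polr2b, and the WT counts were made without strand and with reads allowed to count for more than 1 gene.

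The spread among lines was then compared with that of all 15800 genes with a mean of at least 1 CPM, using the highest over the lowest library after a prior count of 1 was added. Among WT primary libraries the members ranged from 1.02-fold to 1.22-fold, with a median of 1.13-fold against 1.09-fold over all genes. Of the 8, 4 were among the widest 25% of genes in that group and 0 among the widest 10%. Among the WT lines they ranged from 2.22-fold for Igf1r to 226.0-fold for Igfbp3, with a median of 12.2-fold against 1.46-fold. All 8 were among the widest 25% of genes and 5 among the widest 10%. Among Prkd3-/- primary libraries the median was 2.16-fold against 1.33-fold, with 6 of the 8 among the widest 25% and 3 among the widest 10%, so a wide spread was not particular to the lines in this genotype. Among Prkd3-/- lines it was 32.9-fold against 2.10-fold, from 1.44-fold for Igf1r to 255.2-fold for Igfbp2, and 6 of the 8 were among the widest 10%. The remaining members, Igf1r at 1.44-fold and Igfbp7 at 1.83-fold, were narrower than the median gene in Prkd3-/- lines. These are descriptions of single lines, with no test.

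**Figure D3:**
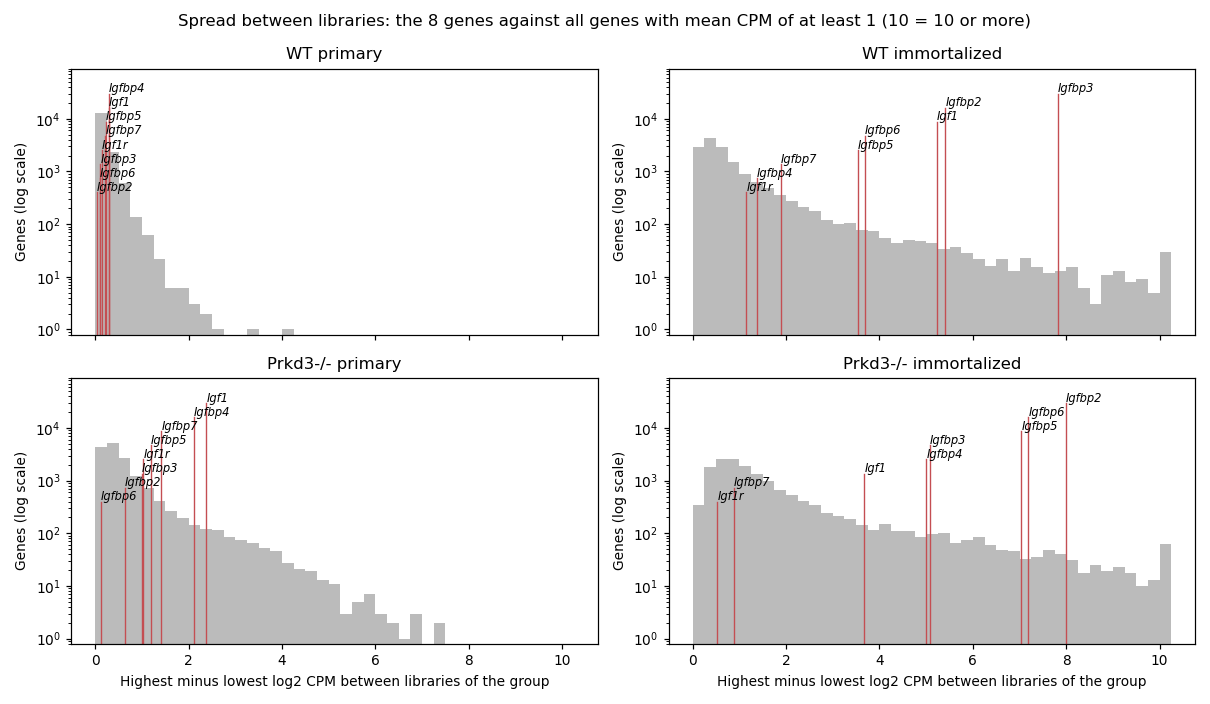
Number of genes (log scale) by the highest minus the lowest log2 CPM among the libraries of each group, over 15800 genes, with values of 10 or more in the last bar; red lines mark the 8 members. Members sit at or below 0.29 in WT primary libraries and reach 7.82 in WT lines and beyond that in Prkd3-/- lines.

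No line was low in every member. WT line 3 was the lowest of the WT lines for 4 of the 8 genes, Igf1, Igfbp3, Igfbp5 and Igfbp6, and the highest for 3, Igf1r, Igfbp4 and Igfbp7. Prkd3-/- line 13 was the lowest of its genotype's lines for 4 genes, Igf1, Igfbp2, Igfbp3 and Igfbp6. It was below every primary library of its genotype for 5 of the 8, as were Prkd3-/- line 15 and WT lines 4 and 5. Without a share over all genes for each line, that count is no result about the members. Prkd3-/- line 14 was the highest for 5 genes. Line 13a, which shares its number with line 13, exceeded it 151.2-fold for Igfbp6, 88.8-fold for Igfbp5, 51.5-fold for Igfbp2, 20.1-fold for Igfbp3, 5.45-fold for Igf1, 2.23-fold for Igfbp4 and 1.47-fold for Igfbp7, while Igf1r was at 0.88-fold. Macrophage marker transcripts also differed between them, at 334.5 CPM in 13a and 17.8 CPM in 13. Their part in these differences was not tested. Lines 13 and 13a therefore cannot be treated as repeats of one measurement for these genes.

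To compare levels between genes, CPM were divided by exon length in kilobases (FPKM scale). On this scale Igfbp7 was the most abundant of the 6 binding protein transcripts in WT primary cells, at 351.5 ± 27.8 FPKM (SD, n = 3), followed by Igfbp4 at 86.7 ± 8.97, Igfbp2 at 80.1 ± 1.00, Igfbp3 at 73.7 ± 2.84, Igfbp5 at 63.5 ± 5.32 and Igfbp6 at 49.5 ± 1.90 FPKM. In this order Igfbp4 and Igfbp2 differed by less than the SD of Igfbp4, and the other neighbors by more than their SDs. Igf1r, at 16.5 ± 0.89 FPKM, and Igf1, at 8.87 ± 0.89 FPKM, were below all 6. In the WT lines Igfbp5, at 1.11 ± 0.86 FPKM, and Igfbp3, at 5.97 ± 8.87 FPKM, were the least abundant carriers by mean. Igfbp3 was the lowest in 2 of the 3 lines, clones 3 and 4, and Igfbp5 in line 5.

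The summed level of the 6 transcripts was 705.0 ± 22.3 FPKM in WT primary cells and 1012 ± 292.5 FPKM in WT lines (SD, n = 3 each), and 475.7 ± 108.3 (n = 3) and 586.7 ± 546.0 FPKM (n = 4) in Prkd3-/- primary cells and lines. Igfbp7 made up 49.8 ± 2.43% of the sum in WT primary cells. It was the largest part in 11 of the 13 libraries, and Igfbp2 was the largest in the others, WT line 4 at 47.7% and Prkd3-/- line 14 at 64.3%. In Prkd3-/- lines 13 and 15 the sum was 210.5 and 181.0 FPKM, below every other library, and Igfbp7 made up 82.3% and 76.7% of it. The share of Igfbp3 was at most 1.69% in any WT line and 1.84% in any Prkd3-/- line, whereas it was 5.14% or more in every primary library. The share of Igfbp5 was at most 0.243% in WT lines, against 8.44% or more in WT primary libraries, and up to 6.15% in Prkd3-/- lines. Dividing by length moves the shares, and by CPM Igfbp7 made up 26.2% in WT primary cells. By CPM it was the largest part in 7 of the 13 libraries, Igfbp4 in 3 (WT primary clone 5 and Prkd3-/- primary clones 13 and 15) and Igfbp2 in 3 (WT line 4 and Prkd3-/- lines 13a and 14).

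**Figure D4:**
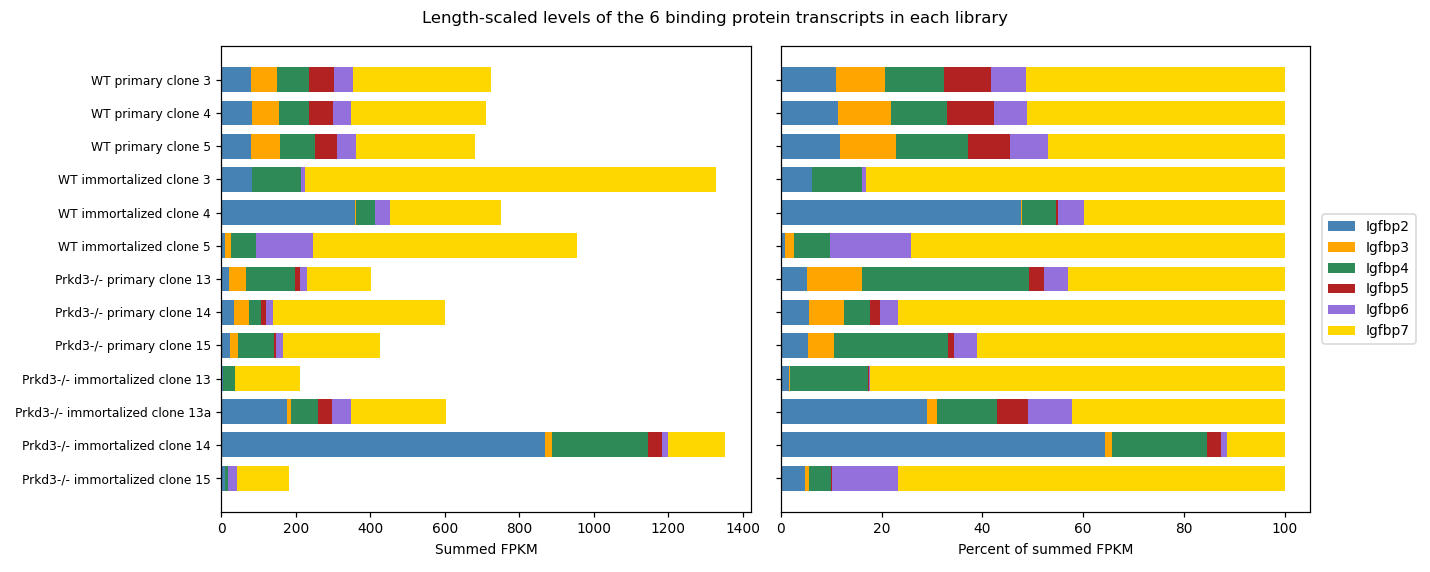
Level (FPKM, left) and percent of the sum (right) of the 6 binding protein transcripts in each library, stacked by gene. Igfbp7 is the largest part everywhere except in WT immortalized clone 4 and Prkd3-/- immortalized clone 14, where Igfbp2 is, and the sums run from 181.0 to 1354 FPKM.

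The primary cells of the genotypes already differed for several members, given here as levels with no test, since genotype and table cannot be told apart. WT primary means exceeded Prkd3-/- primary means 6.24-fold for Igfbp5, 3.10-fold for Igfbp2, 2.71-fold for Igf1, 2.51-fold for Igfbp6 and 2.05-fold for Igfbp3, with no overlap between the libraries. Igf1r, Igfbp4 and Igfbp7 overlapped, at 1.11-fold, 1.00-fold and 1.2-fold. How many of all genes lay apart between these libraries was not counted, so the order does not set the members apart from other genes. The Igfbp5 levels of Prkd3-/- lines 13a and 14 were above their own primary libraries and below every WT primary library.

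Igf2 and Igfbp1, the ligand and the binding protein of the family outside the set, were read alongside. Igfbp1, a liver-derived carrier, had 0 counts in all 13 libraries. Igf2, the imprinted fetal ligand, had 3619, 3406 and 2770 CPM in WT primary clones 3, 4 and 5 and 0.55, 294.9 and 254.4 CPM in the WT lines. In Prkd3-/- primary clones 13, 14 and 15 it had 1175, 864.6 and 651.7 CPM, and in lines 13, 13a, 14 and 15 it had 0.63, 526.5, 114.0 and 84.8 CPM. All lines were below all primary libraries of their genotype, and the lowest lines, WT 3 and Prkd3-/- 13, were also the lowest for Igf1, Igfbp3 and Igfbp6. By edgeR the Log2FC of Igf2 was -4.16 (SE 1.74, adjusted p = 0.267) in WT and -2.30 (SE 1.41, adjusted p = 0.832) in Prkd3-/- cells, so neither passed.

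Further genes of the pathway were counted from lists of other ligands, receptors and carriers, of binding protein proteases and their inhibitors, of receptor docking proteins, of the PI3K-AKT-mTOR arm and of IGF mRNA binding proteins and regulators. Of 45 genes, 40 were tested in each genotype, and 0 passed the thresholds in either direction by edgeR. DESeq2 passed 1 list gene in each genotype, where it passed 5.94% of all genes in WT and 0.781% in Prkd3-/- cells. In WT this was Stc1, an inhibitor of the PAPP-A proteases named after its value was seen, at 15.1 ± 0.98 CPM in primary cells and 3.76 ± 2.82 CPM in lines (Log2FC -1.999 by edgeR, adjusted p = 0.00673 by DESeq2 and 0.146 by edgeR). For Prkd3-/- cells it was Lin28b, an RNA-binding regulator likewise named afterward, with 60 counts over the 3 primary libraries and 1 over the 4 lines, too few for edgeR's filter (adjusted p = 0.00513 by DESeq2). The Log2FC was negative for 21 of 40 in WT, where 45.8% of all genes were negative, and for 20 of 40 in Prkd3-/- cells, where 43.1% were. The median was -0.02 against 0.04 over all genes in WT, and 0.01 against 0.07 in Prkd3-/- cells. The 18 genes of the PI3K-AKT-mTOR arm stayed between -0.17 and 0.70 in WT, with a median of 0.09, and between -0.67 and 0.73 in Prkd3-/- cells, with a median of 0.05. The smallest edgeR adjusted p in WT belonged to Sos1, a Ras exchange factor named here after its value was seen, with a Log2FC of 0.37 (SE 0.08, adjusted p = 0.0561 by edgeR, 0.00385 by DESeq2). In Prkd3-/- cells it belonged to Igf2r, the clearance receptor for IGF2 and likewise named afterward, at -0.88 (SE 0.20, adjusted p = 0.463 by edgeR, 0.0295 by DESeq2).

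**Figure D5:**
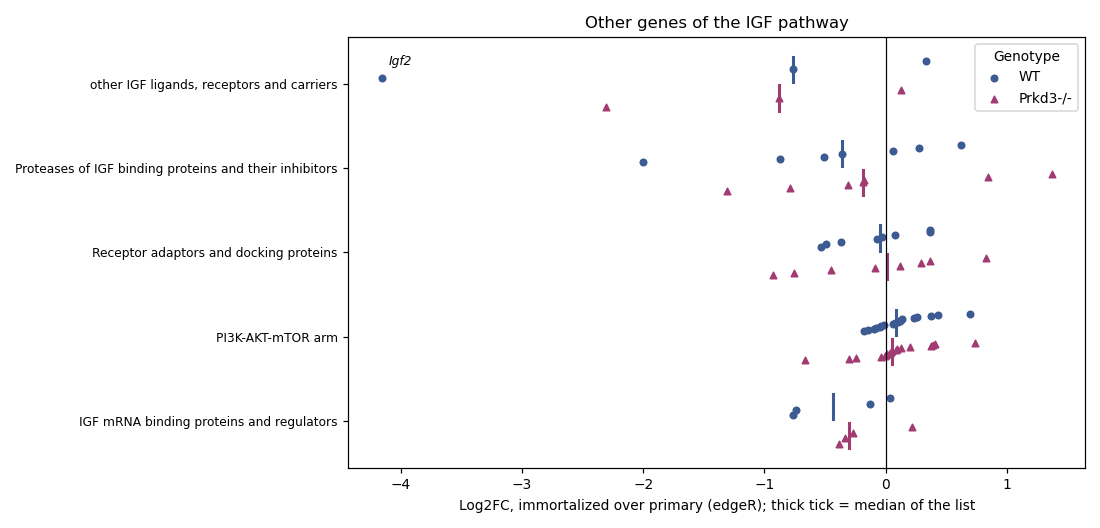
Log2FC of immortalized over primary cells (edgeR) for the 40 tested genes of 5 pathway lists, circles WT and triangles Prkd3-/-, with thick ticks at list medians. Igf2 in WT cells, at -4.16, lies farthest from 0, and the PI3K-AKT-mTOR arm lies within -0.67 to 0.73 over both genotypes.

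Profiles across the 13 libraries were compared as log2 CPM centered on each gene's mean, with the root mean square (RMS) difference as the measure of likeness. Among the members, Igfbp3 and Igfbp5 differed by 1.49, where their own RMS deviations about the mean were 3.02 and 3.04. Igf1r and Igfbp7 had the smallest difference, 0.754, but both varied little (0.396 and 0.838), so that this value does not make their profiles alike. For the 6 members spanning at least 4 log2 units, the nearest of all tested genes were listed. Nearest to Igfbp4 were Prrx2 (0.587), a mesenchymal homeobox gene, Jag1 (0.595), a Notch ligand, and St6galnac2 (0.597). Nearest to Igfbp6 were the interferon-induced Ifi27 (0.667), Mdga1 (0.725) and Pdzrn3 (0.732). Nearest to Igfbp2 were Tmtc1 (1.13), the Wnt antagonist gene Sfrp4 (1.175) and Slc52a3 (1.20). Igfbp5 had as its nearest genes Zic4 (1.20), Gdf10 (1.23) and Gm30003 (1.25), all below 10 CPM in every library. Igfbp3 had 1700048O20Rik (0.898), Iigp1 (1.06) and Srpx (1.12), and Igf1 had C530044C16Rik (0.481), Tnnt1 (0.532) and Lrp3 (0.694). The likeness is a description over shared libraries, and several of these genes were at or near 0 in some of them. A few were low throughout: C530044C16Rik had at most 0.272 CPM in any library, 1700048O20Rik at most 1.86 and Tnnt1 at most 2.10 CPM.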

How the data were processed

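Per the labels, poly-A RNA was sequenced from 13 libraries. The authors aligned reads with STAR 2.7.10a to mm10 (GRCm38), used SAMtools 1.18, and counted uniquely mapped reads per Ensembl release 102 gene with featureCounts (Subread 2.0.6). They deposited the results as raw counts. The WT counting was unstranded, with multiple overlaps allowed, per the file header, and the options for the Prkd3-/- table are not given in the sources used here. Symbols matched 55141 of 55487 identifiers. Members and lists were chosen with earlier results of these data known. edgeR 4.0.16 (TMM, filterByExpr, robust quasi-likelihood, R 4.3.3) was fitted on all genes within each genotype, and with a state by genotype interaction over all libraries, with Benjamini-Hochberg adjustment. The SE printed for edgeR is the absolute Log2FC divided by the square root of the quasi-likelihood F statistic, an approximation. DESeq2 1.42.0, limma 3.58.1 with a weight per state, other filters and left-out libraries were alternatives. The text names all 8 members, Igf2, Igfbp1, list genes past the thresholds, and the 3 nearest profiles of each member spanning 4 log2 units. CPM use TMM factors over 13 libraries. The code was tested on simulated data. WT numbers pair samples because each line came from the same embryo as its primary culture, and the correlations of paired deviations were -0.077, 0.053 and -0.076. Reads without molecular identifiers are not independent molecules, so depth floors cover counting error only. Promoters are from RefSeq (GRCm38.p6). Protein sequences were not used here.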

Additional observations from a re-analysis of the deposited data

How the results depend on the processing

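Among WT genes, 361 passed, against 1361 by DESeq2, 868 at an adjusted p below 0.05, 198 by limma, 157 with at least 10 counts in every library, and 0 in a single fit of all 13 libraries or with the replicate block. Leaving out a library gave 48 to 743, lowest without primary clones 3 (48), 4 (50) and 5 (66) and highest without line 5. For Prkd3-/- cells 0 genes passed, against 190 by DESeq2 and 1 in the single fit. For the genotype difference 0 passed, against 37 by DESeq2 and 2 without Prkd3-/- line 14 (leaving out a library gave 0 to 2). Members passing in WT cells numbered 0, and 1 (Igfbp5) by DESeq2, by limma, at an adjusted p below 0.05 and without line 3 (0 to 1). The replicate block changed no other call.

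The Log2FC changed sign under limma for Igfbp2 (-0.35) and Igfbp6 (-0.25) in WT, for Igfbp4 (-0.66), Igfbp5 (-1.40) and Igfbp6 (-1.02) in Prkd3-/-, and for the Igfbp4 difference (-0.49). It did so with the replicate block (paired clones) for Igfbp2 (-0.25) and Igfbp6 (-0.26) in WT, for Igf1 (0.33), Igfbp4 (-0.99) and Igfbp5 (-0.18) in Prkd3-/-, and for the differences of Igfbp4 (-0.81) and Igfbp6 (0.39). With counts of 13 and 13a summed, Igf1 in Prkd3-/- cells was 0.17.

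Leave-one-out ranges that crossed 0 were -1.08 to 0.17 for Igf1, -0.10 to 0.52 for Igf1r, -0.84 to 1.46 for Igfbp2, -0.54 to 0.21 for Igfbp4 and -0.96 to 0.95 for Igfbp6 in WT. In Prkd3-/- cells they were -0.77 to 1.19 for Igf1, -0.44 to 0.023 for Igf1r, -1.20 to 0.54 for Igfbp4 and -0.61 to 0.61 for Igfbp6. For the genotype difference they were -0.37 to 1.58 for Igf1, -1.15 to 0.63 for Igfbp4 and -1.05 to 1.16 for Igfbp6. The cause was not tested. Ranges on one side of 0 were -6.39 to -3.04 for Igfbp3, -6.40 to -5.32 for Igfbp5 and 0.52 to 1.37 for Igfbp7 in WT, and 1.27 to 3.77 for Igfbp2, -3.05 to -1.79 for Igfbp3, 0.30 to 1.32 for Igfbp5 and -1.02 to -0.27 for Igfbp7 in Prkd3-/- cells.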
